A study of Mus musculus with 3 samples.

Results

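The genes described here are 10 identity genes of dendritic cell subsets, taken by symbol from the 24346 gene symbols of each table, and all 10 were found in each of the 3 libraries. They are Xcr1 and Clec9a for type 1 conventional dendritic cells (cDC1), Cd209a and Cd24a grouped under type 2 (cDC2), Flt3, Dpp4, Btla and Fscn1 as general and mature dendritic cell genes, and Siglech and Tcf4 for plasmacytoid dendritic cells (pDC). RNA was sequenced from CD64- dendritic cells (called CD64- DC), from CD64+ macrophages and from Gr-1+ CD11b+ cells, the last of which the labels class as neutrophils and monocytes. All came from the colon of healthy mice of the inbred strain BALB/c; no treatment or altered allele is named, and the sources used here do not give the age, the sex or whether animals were pooled. Each population had 1 library, so no difference has a replicate check and no p-value is given. None of the 10 genes encodes CD64, Gr-1 or CD11b, the antigens that the labels name.

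Conventional dendritic cells arise from bone marrow precursors under the growth factor FLT3L and carry antigen from tissue to lymph node. The cDC1 branch depends on the transcription factors IRF8 and BATF3 and presents antigen of dead cells to CD8 T cells, while the cDC2 branch depends largely on IRF4 and favours CD4 T cells and B cell help. Plasmacytoid dendritic cells depend on TCF4 (E2-2) and release type I interferon. In the gut, macrophages share CD11c and MHC class II with dendritic cells, which is why CD64 is used to part them. Several of the 10 genes are also used by other cells: Btla and Tcf4 by B cells, Dpp4 by T cells and epithelium, and Cd24a by granulocytes, B cells and epithelium. Among mouse conventional dendritic cells, CD24 is also widely used to gate cDC1, so Cd24a does not by itself mark cDC2.

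Values are FPKM, which divide the fragments of a gene by transcript length and library size, and can be compared between genes as levels per length. Read from the steps between low values, the CD64- DC library was 3.56 times and the CD64+ macrophage library 2.71 times as deep as that of Gr-1+ CD11b+ cells. From these depths each value was given an approximate 95% counting interval (exact Poisson), which covers counting error only. As a measure of background, the silent-gene level is the 95th percentile of 1426 olfactory and vomeronasal receptor genes, and it was 0.610 FPKM in CD64- DC and 3.22 in CD64+ macrophages, with 9.65 in Gr-1+ CD11b+ cells. All 10 identity genes lay above that level in CD64- DC, 7 of 10 in CD64+ macrophages and 2 of 10 in Gr-1+ CD11b+ cells. The comparisons below took in the 17329 genes that reached 1 FPKM in at least 1 library, and of these 72.0% lay above it in CD64- DC and 50.4% in CD64+ macrophages, with 26.3% in Gr-1+ CD11b+ cells. The 2 genes of 10 in Gr-1+ CD11b+ cells were thus near the share of all genes.

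The highest level of 9 of the 10 genes was in CD64- DC, and Xcr1 was the exception. The share of all compared genes that were highest in CD64- DC was not counted, so this count has no background beside it. With median-ratio or 75th percentile scaling Cd24a was higher in Gr-1+ CD11b+ cells than in CD64- DC. Within the CD64- DC library the levels spanned 74.4-fold. Cd24a stood highest at 209 FPKM (interval 202 to 217) and Cd209a next at 203 (194 to 211), and these intervals overlapped. Btla followed at 49.7 (47.1 to 52.4) and Flt3 at 39.9 (37.7 to 42.1). Neither interval touched another gene's. Tcf4 was at 26.2 (25.1 to 27.4) and Dpp4 at 22.4 (21 to 23.8), and Siglech was at 14.7 (13 to 16.5). With the mean coding transcript length Tcf4 would rest on about 396 fragments in place of 1980. Its interval would then be wider, so its order against Dpp4 is uncertain. Fscn1 at 5.25 (4.34 to 6.30) came below these. The cDC1 genes were lowest, Xcr1 at 2.83 (2.33 to 3.43) and Clec9a at 2.81 (2.21 to 3.49), and their order could not be told at this depth. In bulk RNA, fewer cells of a subset and less RNA per cell cannot be told apart.

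**Figure D1:**
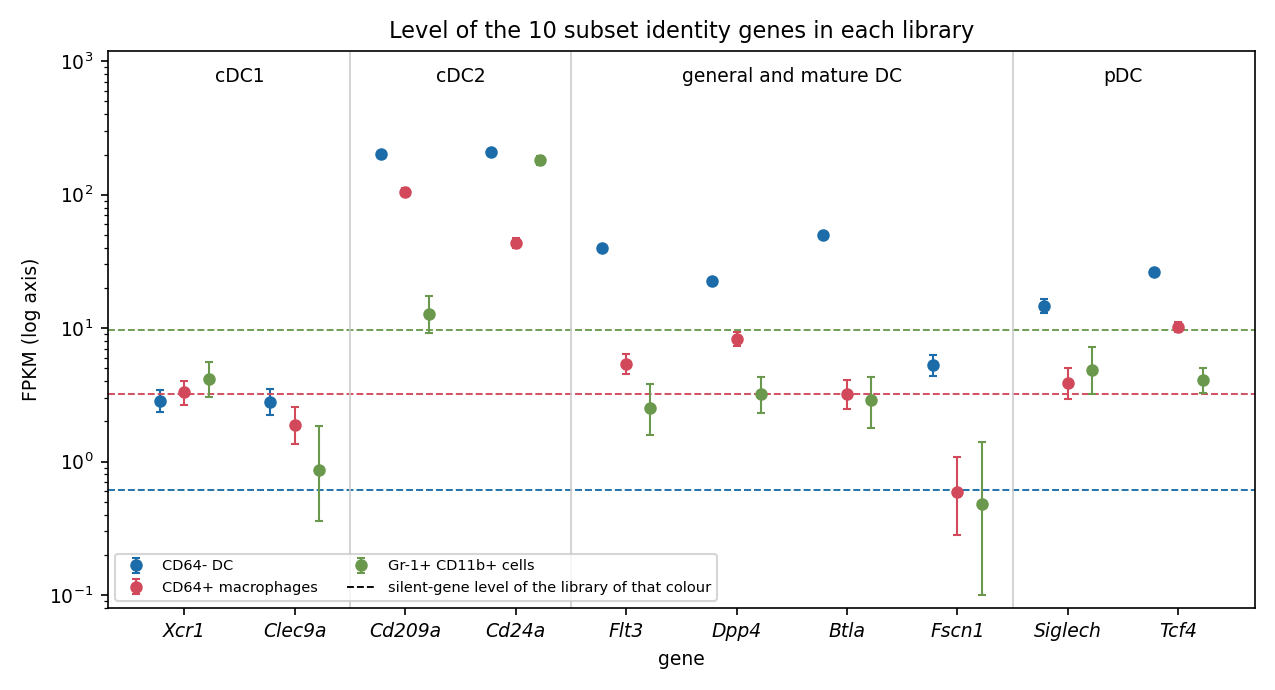
FPKM on a log axis of the 10 genes, ordered by subset, in CD64- DC, in CD64+ macrophages and in Gr-1+ CD11b+ cells (1 library each); bars are 95% counting intervals and dashed lines the silent-gene level of each library (0.610, 3.22 and 9.65 FPKM). In CD64- DC Cd24a and Cd209a stand highest, at 209 and 203 FPKM, and the cDC1 genes Xcr1 and Clec9a lowest, at 2.83 and 2.81.

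The promoters below are shown for Flt3, Btla and Cd209a, which had the largest differences between CD64- DC and Gr-1+ CD11b+ cells, and for Xcr1 and Clec9a, the cDC1 genes that did not pass the size rule in any comparison. Each runs from 250 bases before to 50 bases after the start of the gene, 5′ to 3′ on its own strand, from RefSeq on build GRCm38.p6, with motif matches in capitals.
Flt3 (chr5:147400440-147400739, minus strand): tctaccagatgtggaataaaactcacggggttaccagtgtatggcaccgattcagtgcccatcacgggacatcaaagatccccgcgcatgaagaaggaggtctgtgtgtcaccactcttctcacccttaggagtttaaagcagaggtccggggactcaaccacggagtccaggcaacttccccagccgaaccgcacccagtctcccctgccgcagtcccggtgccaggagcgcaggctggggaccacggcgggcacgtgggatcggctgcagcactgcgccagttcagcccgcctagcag
Btla (chr16:45224087-45224386, plus strand): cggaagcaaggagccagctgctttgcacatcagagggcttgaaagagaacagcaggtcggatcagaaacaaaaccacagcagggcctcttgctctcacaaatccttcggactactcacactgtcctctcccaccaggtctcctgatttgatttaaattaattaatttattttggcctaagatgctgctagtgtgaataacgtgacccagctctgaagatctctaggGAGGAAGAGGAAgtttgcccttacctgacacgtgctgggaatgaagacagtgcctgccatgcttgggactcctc
Cd209a (chr8:3748935-3749234, minus strand): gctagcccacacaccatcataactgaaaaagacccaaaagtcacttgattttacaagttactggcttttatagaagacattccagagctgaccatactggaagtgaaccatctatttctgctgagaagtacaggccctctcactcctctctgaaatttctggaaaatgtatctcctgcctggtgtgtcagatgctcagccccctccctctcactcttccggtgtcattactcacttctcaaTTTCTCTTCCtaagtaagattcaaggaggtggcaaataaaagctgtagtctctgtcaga
Xcr1 (chr9:123861980-123862279, minus strand): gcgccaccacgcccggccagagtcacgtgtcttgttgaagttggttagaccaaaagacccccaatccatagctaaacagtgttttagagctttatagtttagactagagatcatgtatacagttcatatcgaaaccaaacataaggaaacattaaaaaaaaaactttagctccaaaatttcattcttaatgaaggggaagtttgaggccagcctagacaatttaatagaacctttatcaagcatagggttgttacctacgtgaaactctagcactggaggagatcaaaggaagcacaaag
Clec9a (chr6:129408612-129408911, plus strand): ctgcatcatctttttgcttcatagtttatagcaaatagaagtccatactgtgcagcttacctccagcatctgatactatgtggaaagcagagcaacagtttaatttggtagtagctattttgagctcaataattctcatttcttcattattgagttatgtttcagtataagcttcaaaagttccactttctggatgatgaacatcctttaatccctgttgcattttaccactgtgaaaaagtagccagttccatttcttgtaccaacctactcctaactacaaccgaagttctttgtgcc
Motifs were read on both strands as letters alone. Promoters were found for 8 of the 10 genes, all but Cd24a and Tcf4. The PU.1-type motif GAGGAA was in 3 of the 8 (Btla, Dpp4 and Siglech), against 28.3% of all 32851 promoters, and Btla held it at 2 adjoining places, which are the capitals in its sequence. The ETS-IRF composite (GGAA, any 2 bases, GAAA) was in Cd209a alone of the 8, against 2.72% of all promoters, and appears above on the opposite strand. The ISRE-like motif (GAAA, any 2 bases, GAAA), which can overlap the composite, was in Dpp4 (3.44% of all), and the E-box CAGGTG was in Siglech (20.2%). The AP-1 motif TGANTCA was in 0 of the 8 (7.81% of all). The windows of Flt3, Xcr1 and Clec9a held none of these motifs.

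To ask which subset genes set CD64- DC apart from the macrophages of the same tissue, the libraries were compared by a size rule: a difference of 2 or more in log2(FPKM + 1), where the higher library reached 10 FPKM. This scale understates the change of low genes. Against CD64+ macrophages, 3 of the 10 genes were higher in CD64- DC by the rule (Btla, Flt3 and Cd24a) and 0 were lower. Among all 17329 compared genes, 1.53% were higher in CD64- DC and 2.31% were lower. That is 266 and 401 genes, a split that turned to 416 and 264 with each library scaled to the same FPKM sum (equal sums). The median difference of the 10 genes was 1.51 and that of all compared genes was -0.05. Against Gr-1+ CD11b+ cells, 5 of 10 were higher in CD64- DC (Cd209a, Btla, Flt3, Dpp4 and Tcf4) and 0 lower, where 6.28% of all genes were higher and 3.65% lower. These 1088 and 633 genes became 370 and 1141 with scaling to the 75th percentile, under which 3 of the 10 identity genes were higher, and 2 were with a pseudocount of 10. The medians were 2.25 for the 10 genes and -0.01 for all. Flt3 and Btla passed in both comparisons, as 1.21% of all genes did. The comparisons share the CD64- DC library and are not independent of each other.

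**Figure D2:**
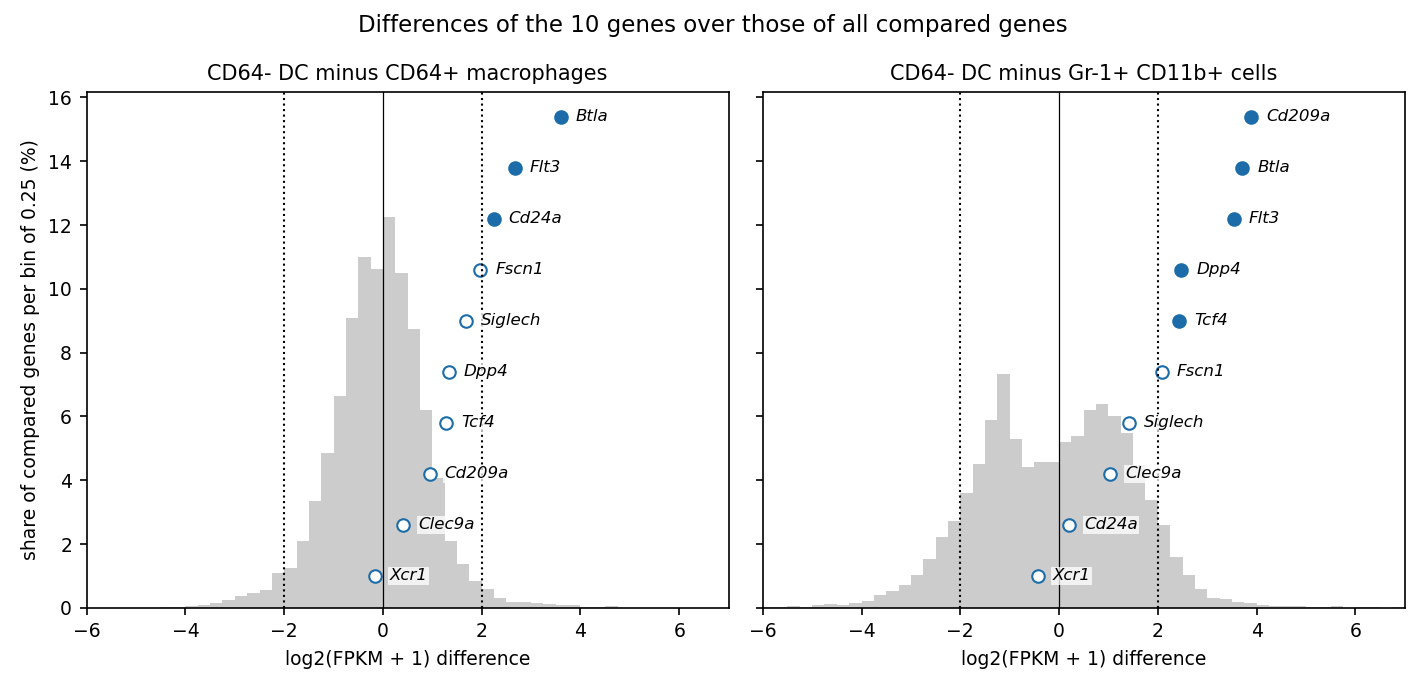
Differences in log2(FPKM + 1) of the 10 genes (circles, filled where the size rule is passed, stacked in order of size so that their height has no unit) over the share of all compared genes per bin (grey), for CD64- DC minus CD64+ macrophages and CD64- DC minus Gr-1+ CD11b+ cells; dotted lines mark differences of -2 and 2. In the macrophage comparison 3 genes pass, and in the Gr-1+ CD11b+ comparison 5 genes pass, with Xcr1 at the low end of both.

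Flt3 encodes the receptor tyrosine kinase for FLT3L, on which dendritic cell development depends, and lies on chromosome 5 at 147330741 to 147400489 (GRCm38, minus strand). It was at 39.9 FPKM in CD64- DC and 5.42 in CD64+ macrophages, with 2.52 in Gr-1+ CD11b+ cells. The CD64- DC value was 7.36-fold that of macrophages (interval 6.15 to 8.92), a log2 difference of 2.67, and 15.8-fold that of Gr-1+ CD11b+ cells (10.4 to 25.3), a log2 difference of 3.54. The Gr-1+ CD11b+ value lay below the silent-gene level of its library. With a pseudocount of 10 both differences were short of the rule, at 1.69 against macrophages and 1.99 against Gr-1+ CD11b+ cells.

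Btla, an inhibitory receptor that binds HVEM and is found on dendritic cells and on B and T cells, lies on chromosome 16 at 45224315 to 45257670 (plus strand). It was at 49.7 FPKM in CD64- DC and 3.18 in CD64+ macrophages, with 2.87 in Gr-1+ CD11b+ cells, and both lower values were under the silent-gene level. It was 15.6-fold higher than in macrophages (12.1 to 20.1), a log2 difference of 3.60. Over Gr-1+ CD11b+ cells it was 17.3-fold higher (11.4 to 27.8), an interval that overlapped those of Cd209a and Flt3. B cell markers moved the same way. All 12 B cell markers listed passed the size rule as higher in CD64- DC than in macrophages, with ratios from 13.6 to 44.6 and a median of 25.4. The Btla ratio over macrophages lay inside that range, and the ratios of the other 9 identity genes lay below it. Over Gr-1+ CD11b+ cells the B cell marker ratios ran from 12.8 to 120. That range held the ratios of Btla, Cd209a (15.9) and Flt3 (15.8), and the other identity genes lay below it. The part of B cells in the values of Btla, Cd209a and Flt3 was not tested.

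Dpp4, which encodes the surface peptidase CD26, lies on chromosome 2 at 62330073 to 62412231 (minus strand). It was at 22.4 FPKM in CD64- DC and 8.31 in CD64+ macrophages, with 3.20 in Gr-1+ CD11b+ cells, the last under the silent-gene level. It passed the rule against Gr-1+ CD11b+ cells, with a difference of 2.48 and a ratio of 7.0 (5.13 to 9.82). Its difference from macrophages was 1.33, a ratio of 2.69 (2.36 to 3.08). With 75th percentile scaling, which moved the median of all genes by -0.61 between CD64- DC and Gr-1+ CD11b+ cells, the difference from Gr-1+ CD11b+ cells was 1.83 and no longer passed, and with a pseudocount of 10 it was 1.30. Antisense genes overlap Dpp4 and Flt3 in the annotation, and fragments of either strand could not be told apart without a stranded count.

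Fscn1 encodes fascin, the actin-bundling protein of mature dendritic cells, and lies on chromosome 5 at 142960343 to 142973185 (plus strand). It was at 5.25 FPKM in CD64- DC and 0.594 in CD64+ macrophages, with 0.482 in Gr-1+ CD11b+ cells. These rest on about 117 fragments in CD64- DC and 10 in macrophages, but 3 in Gr-1+ CD11b+ cells. Its ratio of 8.85 over macrophages (4.67 to 19) had an interval that also held the 7.36 of Flt3 and the 15.6 of Btla. The log2 difference from macrophages was 1.97, just short of the rule, and its level was also under the 10 FPKM that the rule asks. Both lower values were under the silent-gene level of their libraries. The ratio to Gr-1+ CD11b+ cells, 10.9, had an interval of 3.65 to 53.7. The log2 difference there was 2.08, but no library reached 10 FPKM.

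Both genes grouped under cDC2 were abundant, and they differed in which other library shared them. Cd209a, a C-type lectin of the DC-SIGN family, lies on chromosome 8 at 3743397 to 3748984 (minus strand). It was at 203 FPKM in CD64- DC and 105 in CD64+ macrophages, with 12.7 in Gr-1+ CD11b+ cells. CD64- DC and macrophages differed by 0.94 on the log2 scale, a ratio of 1.93 (1.79 to 2.09), short of the rule. Both were higher than Gr-1+ CD11b+ cells by the rule, CD64- DC with a difference of 3.89 and macrophages with 2.95. Cd209a has related copies on the same chromosome, and the counting may have split fragments among them.

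Cd24a, a small glycosyl-anchored sialoprotein, lies on chromosome 10 at 43578284 to 43584265 (plus strand). It was at 209 FPKM in CD64- DC and 43.4 in CD64+ macrophages, with 181 in Gr-1+ CD11b+ cells. CD64- DC stood 2.25 above macrophages on the log2 scale, a ratio of 4.83 (4.39 to 5.33), and the difference of macrophages from Gr-1+ CD11b+ cells was -2.04, which a pseudocount of 10 brought to -1.84, short of the rule. The 1.16-fold difference between CD64- DC and Gr-1+ CD11b+ cells (1.07 to 1.26) turned direction with median-ratio scaling, to -0.05, and with 75th percentile scaling, to -0.56. The 11 epithelial markers listed summed to 795 FPKM in CD64- DC and 475 in macrophages, with 1521 in Gr-1+ CD11b+ cells, so macrophages were lowest in both Cd24a and this sum. Car1 (carbonic anhydrase) led that list at 317 FPKM in CD64- DC and 187 in macrophages, with 598 in Gr-1+ CD11b+ cells. Krt8 (a keratin) was at 156 FPKM in CD64- DC and 101 in macrophages, with 361 in Gr-1+ CD11b+ cells. The ratios of CD64- DC to macrophages ran from 1.17 to 2.80 over these markers, below the 4.83 of Cd24a. The part of epithelial and granulocyte RNA in Cd24a was not tested.

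The cDC1 genes were low in all 3 libraries, and neither passed the size rule in any comparison. Xcr1, the receptor for the chemokine XCL1 and the defining surface gene of cDC1, lies on chromosome 9 at 123852315 to 123862029 (minus strand). It was at 2.83 FPKM in CD64- DC and 3.30 in CD64+ macrophages, with 4.18 in Gr-1+ CD11b+ cells. These rest on about 109 fragments in CD64- DC and 96 in macrophages, but 45 in Gr-1+ CD11b+ cells. The macrophage value was just above the silent-gene level of 3.22, and that of Gr-1+ CD11b+ cells was under its 9.65. The ratio of CD64- DC to macrophages was 0.859 (0.651 to 1.15), so no difference was detectable at this depth, and its direction turned with scaling to equal sums, at a log2 difference of 0.13, against -0.17 as deposited. The ratio to Gr-1+ CD11b+ cells was 0.677 (0.476 to 0.985), a log2 difference of -0.44 that turned to 0.11 when the median of the silent genes was subtracted.

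Clec9a, which encodes the receptor DNGR-1 for actin of dead cells, lies on chromosome 6 at 129408862 to 129424763 (plus strand). It was at 2.81 FPKM in CD64- DC and 1.88 in CD64+ macrophages, with 0.866 in Gr-1+ CD11b+ cells, and both lower values were under the silent-gene level. The ratio of CD64- DC to macrophages was 1.5, with an interval of 1.001 to 2.23. It rests on about 78 fragments in CD64- DC and 40 in macrophages; with the mean coding transcript length these would be about 29 in CD64- DC and 15 in macrophages, so the interval would be wider and the difference is uncertain. That to Gr-1+ CD11b+ cells was 3.25 (1.45 to 8.03), resting on about 7 fragments in Gr-1+ CD11b+ cells. Its locus overlaps Clec1b on the same strand, which was at 0.346 FPKM in CD64- DC and 5.03 in macrophages, with 1.65 in Gr-1+ CD11b+ cells, so fragments could have been assigned to either gene.

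Of the pDC genes, neither passed the rule against macrophages. Siglech, an immunoglobulin-like lectin of pDC, lies on chromosome 7 at 55768178 to 55778925 (plus strand). It was at 14.7 FPKM in CD64- DC and 3.87 in CD64+ macrophages, with 4.87 in Gr-1+ CD11b+ cells, the last under the silent-gene level. The ratio of CD64- DC to macrophages was 3.79 (2.81 to 5.10), a difference of 1.69, which came to 2.03 and passed with scaling to equal sums. The ratio to Gr-1+ CD11b+ cells was 3.01 (1.99 to 4.65). Tcf4, the E protein on which pDC identity depends, lies on chromosome 18 at 69343356 to 69689079 (plus strand). It was at 26.2 FPKM in CD64- DC and 10.2 in CD64+ macrophages, with 4.05 in Gr-1+ CD11b+ cells, the last under the silent-gene level. It passed against Gr-1+ CD11b+ cells, with a difference of 2.43 that was short of the rule with 75th percentile scaling, at 1.76, and with a pseudocount of 10, at 1.36. It differed from macrophages by 1.28, a ratio of 2.58 (2.35 to 2.83). The annotation lists 62 transcripts of Tcf4, so its length and its FPKM are less certain than those of the other genes. With the mean coding transcript length its fragments would be about 396 in CD64- DC and 117 in macrophages, with 17 in Gr-1+ CD11b+ cells. Its intervals would then be wider than those given.

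Between CD64+ macrophages and Gr-1+ CD11b+ cells, 1 of the 10 genes was higher in macrophages (Cd209a, where 3.41% of all genes were) and 1 was lower (Cd24a, where 1.41% were). Over all genes the 591 higher and 244 lower became 244 and 647 with 75th percentile scaling. The median difference was 0.37 for the 10 genes and -0.10 for all. Most of the 10 lay under the silent-gene level in Gr-1+ CD11b+ cells, and their order there is not read as expression.

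Of 66 further dendritic cell genes, CD64- DC had 9 higher and 3 lower than macrophages by the size rule, and their median over the 65 compared was 0.27. Of all compared genes, 1.53% were higher and 2.31% lower. With equal sums 14 of the 66 were higher than in macrophages. Against Gr-1+ CD11b+ cells 20 were higher and 1 lower, with a median of 1.17, and 9 and 3 with 75th percentile scaling. Of all compared genes, 6.28% were higher and 3.65% lower there. The same shares stand beside the counts of each list below.

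Among 12 further cDC1 genes, 1 was higher in CD64- DC than in macrophages and 1 lower. Wdfy4, needed for cross-presentation by cDC1, was at 17.1 FPKM in CD64- DC and 2.68 in macrophages, with 3.20 in Gr-1+ CD11b+ cells. Rab7b, an endosomal GTPase, was lower, at 32.5 FPKM in CD64- DC against 158 in macrophages, with a difference of -2.24 that was short of the rule with equal sums. The median of this list was -0.45. The lineage regulators Irf8, Batf3 and Id2 did not pass between CD64- DC and macrophages. Irf8 was at 190 FPKM in CD64- DC and 145 in macrophages, with 27.6 in Gr-1+ CD11b+ cells. Batf3 was at 20.6 FPKM in CD64- DC and 42.1 in macrophages, with 1.58 in Gr-1+ CD11b+ cells. Id2, an inhibitor of E proteins such as TCF4, was at 162 FPKM in CD64- DC and 354 in macrophages, with 67.4 in Gr-1+ CD11b+ cells. Irf8 and Batf3 were higher in CD64- DC than in Gr-1+ CD11b+ cells by the rule.

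Among 12 further cDC2 genes, 2 were higher in CD64- DC than in macrophages and 2 lower, with a median of -0.50. Irf4, the cDC2 regulator, also used by B and plasma cells, was at 25.6 FPKM in CD64- DC and 4.89 in macrophages, with 1.85 in Gr-1+ CD11b+ cells. It was short of the rule against macrophages with 75th percentile scaling, a pseudocount of 10 or a floor of 30 FPKM. Cd7, a surface protein best known from T and NK cells, was at 81.1 FPKM in CD64- DC and 10.1 in macrophages, with 14.8 in Gr-1+ CD11b+ cells. Lower were Sirpa, the receptor for CD47 on cDC2 and macrophages, at 34.9 FPKM in CD64- DC and 195 in macrophages, with 98.9 in Gr-1+ CD11b+ cells, and the inhibitory lectin Clec12a, at 13.3 FPKM in CD64- DC and 84.7 in macrophages, with 22.8 in Gr-1+ CD11b+ cells. Relb, an NF-kB subunit of the non-canonical pathway, was near-equal at 109 FPKM in CD64- DC and 115 in macrophages, with 98.7 in Gr-1+ CD11b+ cells.

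Of 8 genes shared by conventional dendritic cells, 2 were higher in CD64- DC than in macrophages, and 0 were lower, with a median of 1.20. Bcl11a was at 13.4 FPKM in CD64- DC against 2.12 in macrophages, and Kit at 16.2 FPKM in CD64- DC against 3.03 in macrophages. Kit was short of the rule with 75th percentile scaling. Bcl11a is a factor of pDC and B cells and Kit the receptor for stem cell factor. Zbtb46, the transcription factor that marks conventional dendritic cells, was at 16.0 FPKM in CD64- DC and 6.36 in macrophages, with 6.55 in Gr-1+ CD11b+ cells, a log2 difference of 1.21 from macrophages that did not pass. Spi1, which encodes PU.1, was at 203 FPKM in CD64- DC and 602 in macrophages, with 847 in Gr-1+ CD11b+ cells. Nfil3, a regulator upstream of conventional dendritic cells in mice, was at 95.9 FPKM in CD64- DC and 283 in macrophages, with 305 in Gr-1+ CD11b+ cells.

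Among 18 further genes of mature dendritic cells, 2 were higher in CD64- DC than in macrophages and 0 lower, with a median of 0.69. Ccr7, the receptor that guides them to lymph nodes, was at 1004 FPKM in CD64- DC and 107 in macrophages, with 27.5 in Gr-1+ CD11b+ cells, and Il4i1, an amino acid oxidase, was at 111 FPKM in CD64- DC and 12.4 in macrophages, with 1.51 in Gr-1+ CD11b+ cells. Cd83, a surface protein of mature dendritic cells, was highest in the list, at 1173 FPKM in CD64- DC and 1684 in macrophages, with 155 in Gr-1+ CD11b+ cells. Cd40, Cd80 and Cd86 were also lower in CD64- DC than in macrophages, with differences of -1.59, -1.34 and -1.13, short of the rule. Over the list the ratios of CD64- DC to macrophages ran from 0.330 to 9.38, with a median of 1.69. The ratios of Ccr7 and Il4i1 to macrophages, 9.38 and 8.94, lay below the B cell marker range of 13.6 to 44.6. Their ratios to Gr-1+ CD11b+ cells, 36.5 and 73.9, lay inside the B cell marker range there, 12.8 to 120. The part of B cells in the Ccr7 and Il4i1 values was not tested. Among 16 further pDC genes, 2 were higher in CD64- DC than in macrophages and 0 lower, with a median of 0.91 over the 15 compared. Ly6d, a small surface antigen, was at 1604 FPKM in CD64- DC and 68.1 in macrophages, with 21.5 in Gr-1+ CD11b+ cells, and Spib, an ETS factor, was at 103 FPKM in CD64- DC and 4.08 in macrophages, with 2.30 in Gr-1+ CD11b+ cells. Both are used by B cells as well, and their ratios to macrophages, 23.5 and 25.3, lay inside the B cell marker range of 13.6 to 44.6. Bst2, an interferon-induced pDC antigen, was at 236 FPKM in CD64- DC and 196 in macrophages, with 54.3 in Gr-1+ CD11b+ cells.

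**Figure D3:**
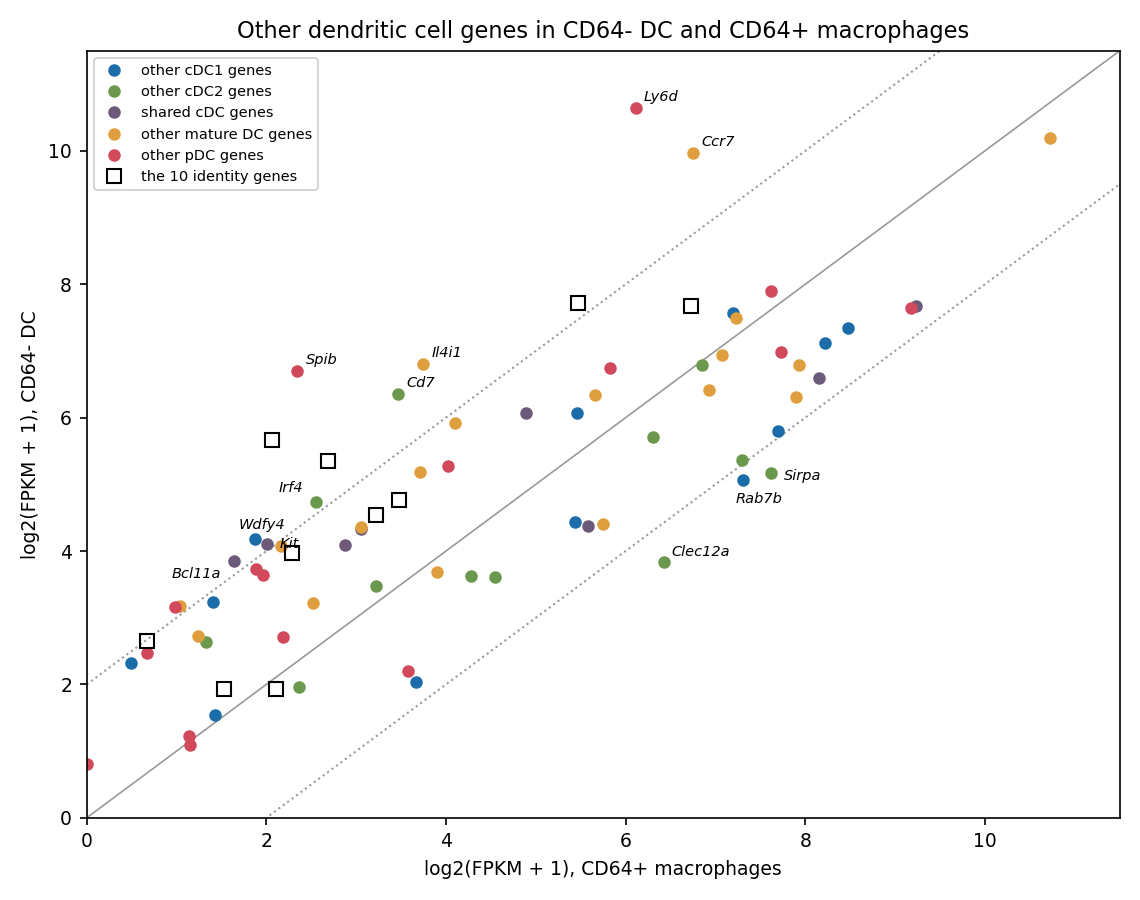
log2(FPKM + 1) of 66 further dendritic cell genes in CD64- DC (vertical) and CD64+ macrophages (horizontal), coloured by list, with the 10 identity genes as open squares; the solid line marks equal values and the dotted lines differences of -2 and 2. Genes past the size rule are named: 9 lie above the upper line and 3 below the lower line.

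Markers of other cells that such preparations could hold were summed in each library. Over 12 B cell markers the sum was 3758 FPKM in CD64- DC and 169 in CD64+ macrophages, with 91.0 in Gr-1+ CD11b+ cells, and 12 of them in CD64- DC, 8 in macrophages and 3 in the Gr-1+ CD11b+ library lay above the silent-gene level. The highest of them, the B cell receptor subunit gene Cd79a, was at 1489 FPKM in CD64- DC and 59.3 in macrophages, with 35.8 in Gr-1+ CD11b+ cells. Cd79b was at 562 FPKM in CD64- DC and 41.2 in macrophages, with 10.8 in Gr-1+ CD11b+ cells. Over 8 plasma cell markers, led by Jchain and Xbp1, the sum was 21389 FPKM in CD64- DC and 1355 in macrophages, with 630 in Gr-1+ CD11b+ cells, and 7 of 8 were higher in CD64- DC than in macrophages. Jchain alone was at 18847 FPKM in CD64- DC. The ratios of these markers to macrophages ran from 0.604 (Prdm1) to 27.5, a range that holds the ratios of all 10 identity genes. Over 13 T, NK and innate lymphoid markers, led by Cd4 and Lck, the sum was 163 FPKM in CD64- DC and 94.5 in macrophages, with 57.5 in Gr-1+ CD11b+ cells. Cd4 alone was at 48.9 FPKM in macrophages and 20.3 in CD64- DC, so it made up much of the macrophage sum and had the lowest ratio. Of these 13, 1 was higher in CD64- DC than in macrophages, and the ratios ran from 0.414 to 7.58, a range that holds the ratios of 8 of the 10 identity genes, all but Btla and Fscn1. The summed lymphocyte markers were thus highest in the library in which 9 of the 10 identity genes were highest. Over 12 macrophage markers, led by Apoe and C1qb, the sum was 3506 FPKM in CD64- DC and 29487 in macrophages, with 2872 in Gr-1+ CD11b+ cells, and 11 of 12 were lower in CD64- DC than in macrophages. Over 8 monocyte markers, led by Plac8 and Ly6c2, it was 1688 FPKM in CD64- DC and 3630 in macrophages, with 1728 in Gr-1+ CD11b+ cells. Over 12 neutrophil markers, led by S100a8 and S100a9, it was 1683 FPKM in CD64- DC and 4327 in macrophages, with 168904 in Gr-1+ CD11b+ cells. Of these, Elane was listed at 0 in all libraries, Camp in CD64- DC and macrophages, and Mpo in CD64- DC. No B cell, plasma cell, lymphoid, macrophage, monocyte or epithelial marker was at 0 in any library. Fcgr1, which encodes CD64, was at 9.23 FPKM in CD64- DC and 113 in macrophages, with 12.3 in Gr-1+ CD11b+ cells. The part of such cells in the values of the 10 genes was not tested.

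**Figure D4:**
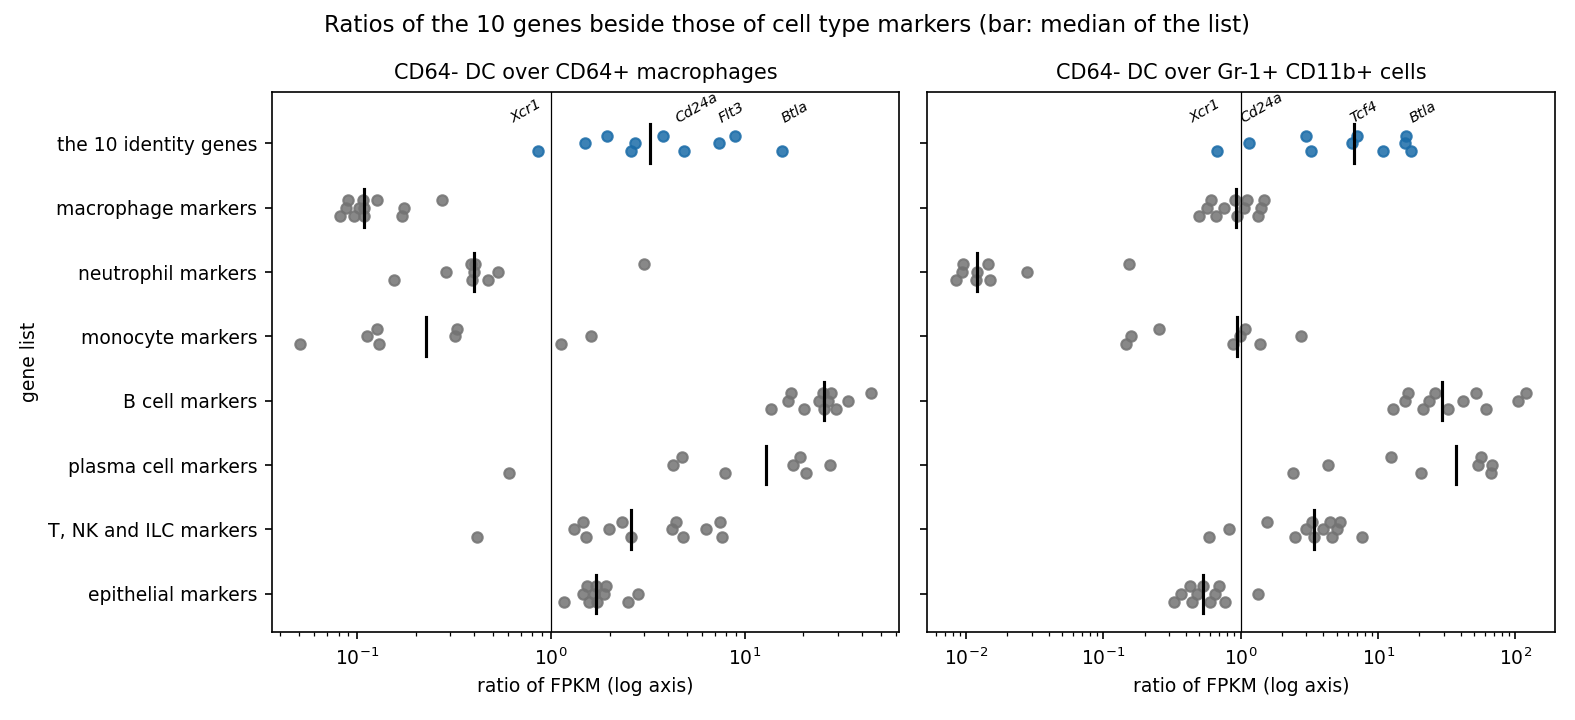
Ratio of FPKM in CD64- DC to that in CD64+ macrophages (left) and Gr-1+ CD11b+ cells (right), on log axes, for each of the 10 identity genes and each marker gene above 0 in both libraries; bars are list medians. Over macrophages, Btla at 15.6 lies within the B cell marker range of 13.6 to 44.6, and Xcr1 at 0.859 is the only identity gene below 1 in the values as deposited, a direction that turns with equal sums. Over Gr-1+ CD11b+ cells, Btla, Cd209a and Flt3 lie within the B cell marker range of 12.8 to 120.

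The genes whose levels were nearest to those of each identity gene over the 3 libraries were sought among 6539 named genes that reached 10 FPKM in at least 1 library, by Euclidean distance in log2(FPKM + 1). Nearest to Flt3 were Prr5 and Pml, at distances of 0.27 and 0.28, and 5 genes lay within 0.5. Nearest to Btla were Sept1 and Ikzf3, at 0.30 and 0.34, also with 5 genes within 0.5. For Cd209a they were Il21r at 0.30 and Gpr171 at 0.56, with 1 gene within 0.5, and for Cd24a Hbb-b1 at 0.85 and Plp2 at 0.88, with 0 within 0.5. Few candidates thus lay near Cd209a and Cd24a. Dpp4 (Rfc4 and Rrs1), Siglech (Mcat and Kdelr3) and Tcf4 (Grwd1 and Riok1) had 64 genes, 52 and 83 within 0.5. The distance takes in level as well as pattern, and the part of level in these counts was not tested. For Xcr1 (Rsf1os1 and Mkl2), Clec9a (Amigo2 and Zfp280b) and Fscn1 (Rltpr and Bfsp2) the nearest distances were 1.02 or more, since these genes lie under the level set for the search. With 3 libraries such a likeness is a description of these libraries alone.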

How the data were processed

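RNA of 3 isolated populations was sequenced, 1 library each, from SMART-Seq HT cDNA and Nextera libraries, per the labels' protocols. For each library the authors deposited its FPKM values by gene symbol. Per the submitters' processing notes, which give no roles, the tools included Cufflinks 2.2.1, TopHat2 2.0.13, SAMtools 0.1.19 and Bowtie2 2.2.3, on build mm10. The sources used here do not give the annotation, the strandedness or the pooling of mice. The 10 genes and all lists were chosen with earlier results of these data known.

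FPKM divides by the library total, so very abundant transcripts lower other values: the top 10 made up 15.0% of all FPKM in CD64- DC and 22.2% in CD64+ macrophages, with 33.5% in Gr-1+ CD11b+ cells. GENCODE M21 on GRCm38 (the same assembly as mm10) held 23310 of the 24346 symbols and gave positions and lengths. For genes with a single transcript over 800 nt, FPKM times length, shortened by 210 nt in CD64- DC and by 220 nt in the other libraries (the shortening that fitted best in steps of 10 nt), stepped in multiples of 1 fragment. Of the low values, 84.9% in CD64- DC and 84.1% in macrophages, with 84.8% in Gr-1+ CD11b+ cells, were whole multiples to within 0.2 (40% by chance). On 1 kb of shortened length, 1 fragment was worth 0.111 FPKM in CD64- DC and 0.145 in macrophages, with 0.394 in Gr-1+ CD11b+ cells. Fragments of each gene were estimated with its longest coding transcript, with exact Poisson intervals and exact binomial intervals for ratios. The shortening was chosen after the data were seen.

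No test was run, as each population had 1 library; differences were taken on log2(FPKM + 1) of the deposited values. Named are the 10 identity genes; in each other dendritic cell list the genes past the size rule against macrophages (at most 4 per direction), the 2 highest in CD64- DC and Irf8, Batf3, Irf4, Zbtb46, Spib and Ccr7; in each marker list the 2 highest in any library (values given where a result turns on them) and those at 0; and the 2 genes nearest to each identity gene, leaving out immunoglobulin and T cell receptor segments and code-like, histone, ribosomal and olfactory symbols. Cd40, Cd80 and Cd86 were named besides these, after the values were seen. The size rule and the step search were checked on simulated counts. Alternatives were 2 other pseudocounts, 2 floors, 2 limits, 4 scalings, subtraction of the silent genes' median, 2 silent-gene percentiles and another transcript length. Python 3.11.15, NumPy 2.4.6, pandas 2.3.3, SciPy 1.17.1 and matplotlib 3.10.9 were used.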

Additional observations from a re-analysis of the deposited data

How the results depend on the processing

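Among the differences of the 10 genes, no called difference changed sign under any alternative. The count of identity genes higher in CD64- DC than in macrophages was 3, and it became 6 with a log2 limit of 1 and 1 with a limit of 3; it stayed within 1.5 times under the other 9 alternatives. The count higher in CD64- DC than in Gr-1+ CD11b+ cells was 5, and it became 2 with a pseudocount of 10 and 3 with a floor of 30 FPKM, a limit of 3 or 75th percentile scaling. Between macrophages and Gr-1+ CD11b+ cells, the 1 gene higher became 2 with a limit of 1 and 0 with a limit of 3, and the 1 gene lower became 0 with a pseudocount of 10 or a limit of 3. Against the 99th percentile of the silent genes, 4 identity genes lay above it in macrophages and 1 did in Gr-1+ CD11b+ cells, where 7 and 2 did at the 95th. A limit, floor or percentile changes these counts by its own construction; for the pseudocount and the scaling the cause was not tested.

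Scaling to equal sums moved the median difference of all genes by 0.25 between CD64- DC and macrophages and by 0.28 between CD64- DC and Gr-1+ CD11b+ cells, and median-ratio scaling moved the comparison with Gr-1+ CD11b+ cells by -0.20. Of 66 further dendritic cell genes, the 9 higher in CD64- DC than in macrophages became 5 with a pseudocount of 10 or a floor of 30 FPKM, 19 with a limit of 1, 4 with a limit of 3 and 14 with either scaling to equal sums, and the 3 lower became 16, 0 and 5 with limits of 1 and 3 and 75th percentile scaling. The 20 higher than in Gr-1+ CD11b+ cells became 10, 8 and 9 with a pseudocount of 10, a limit of 3 and 75th percentile scaling. With the mean length of coding transcripts in place of the longest, 16 of 30 estimated fragment numbers left their counting interval. No paired analysis was possible because each population had 1 library. Depth was lowest in Gr-1+ CD11b+ cells, where 3 fragments of Fscn1 correspond to 0.481 FPKM, and the silent-gene level there was above 8 of the 10 genes.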

Other observations

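The relatives of Cd209a in the DC-SIGN family, looked up after the values were seen, differed among themselves in where they were highest. Cd209d was at 33.8 FPKM in CD64- DC and 8.98 in CD64+ macrophages, with 7.29 in Gr-1+ CD11b+ cells. Cd209c was highest in Gr-1+ CD11b+ cells, at 15.2 FPKM in CD64- DC and 97.1 in macrophages, with 279.7 in Gr-1+ CD11b+ cells. Cd209f and Cd209g were highest in macrophages, at 12.4 and 6.52 FPKM against 1.72 and 1.14 in CD64- DC. Cd209b and Cd209e reached at most 4.53 FPKM in any library.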
